A study of Mus musculus with 28 samples.

Results

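The 40 genes described here encode glucose and lactate transporters, the enzymes that turn glucose into pyruvate and lactate, the oxygen-sensing regulator Hif1a with its prolyl hydroxylases, and genes known to be induced when oxygen is low. They were listed by name and role, with earlier results of these data known, and they were followed across all 28 arrays of a study of mouse bone marrow-derived macrophages. All 40 had a probe among 27656 gene names on the array, and 39 were among the 22463 genes whose probe was bright enough to be tested. The gene left out was Car12, a membrane carbonic anhydrase, whose probes were not well above background on 3 or more arrays.

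The cells were primary macrophages of C57BL6/J mice aged 8 to 12 weeks, grown from bone marrow pooled from several animals (2 males and 1 female per the labels) in recombinant human CSF1 at 200 ng/ml, which all groups received. From day 7 they were left untreated (7 arrays), given LPS at 10 ng/ml for 4 h (7), IL-4 at 10 ng/ml for 18 h (4), the same IL-4 with LPS in its last 4 h (4), IFN-γ at 100 U/ml for 18 h (3), or that IFN-γ with LPS in its last 4 h (3). LPS is a bacterial cell wall component sensed by TLR4, and IL-4 and IFN-γ are cytokines that drive macrophages towards different activation states. Per the labels each letter from A to G names an independent experiment, and each array is 1 culture of pooled cells, so an array says nothing about single animals or single cells. The letters of untreated and LPS arrays are uncertain, as described with the processing.

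Glycolysis splits glucose into pyruvate, which macrophages can reduce to lactate and export, and the flux depends strongly on glucose entry, on hexokinase and on phosphofructokinase. The transcription factor HIF-1α binds short DNA elements near many of these genes and near genes for oxygen supply, mitochondrial turnover and collagen modification. Its protein is destroyed after hydroxylation by the Egln enzymes when oxygen is plentiful, and in macrophages it is also raised by inflammatory signals. Activated macrophages are known for high glucose use and lactate release.

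The DNA around the start sites of these genes is shown for the short element that this factor binds. RefSeq windows of 300 bases (build GRCm38.p6, mostly upstream of the start) were given for 36 of the 39 tested genes, in 51 windows, with none for Bnip3l, Ndrg1 and Slc2a3. The letters searched were the 2 usual cores of the hypoxia response element, ACGTG and GCGTG, on both strands. A palindromic CACGTG holds ACGTG on both strands and so counts as 2 matches. The windows of 4 genes are printed because they hold the most cores among genes that differed between IFN-γ and untreated cells, with the size of that difference deciding among genes with equally many cores. They belong to the lactate dehydrogenase gene Ldha (chr7:46845554-46845853, plus strand), the mitophagy receptor gene Bnip3 (chr7:138909457-138909756, minus strand), the hexokinase gene Hk1 (chr10:62340372-62340671, minus strand) and Pfkfb3 (chr2:11502041-11502340, minus strand). Capitals mark the cores on either strand.
Ldha: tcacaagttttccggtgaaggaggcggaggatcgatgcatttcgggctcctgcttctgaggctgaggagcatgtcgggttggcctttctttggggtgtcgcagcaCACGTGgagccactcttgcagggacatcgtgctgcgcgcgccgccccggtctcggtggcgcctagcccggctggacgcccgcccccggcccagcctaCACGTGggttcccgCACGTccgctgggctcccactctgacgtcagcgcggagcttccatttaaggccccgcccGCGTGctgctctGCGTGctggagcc
Bnip3: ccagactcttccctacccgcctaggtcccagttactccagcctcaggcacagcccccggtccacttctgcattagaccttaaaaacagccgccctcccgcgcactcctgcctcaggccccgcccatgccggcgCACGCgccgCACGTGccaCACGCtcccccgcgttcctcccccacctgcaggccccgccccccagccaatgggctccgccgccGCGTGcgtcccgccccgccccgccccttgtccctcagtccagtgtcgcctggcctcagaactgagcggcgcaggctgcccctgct
Hk1: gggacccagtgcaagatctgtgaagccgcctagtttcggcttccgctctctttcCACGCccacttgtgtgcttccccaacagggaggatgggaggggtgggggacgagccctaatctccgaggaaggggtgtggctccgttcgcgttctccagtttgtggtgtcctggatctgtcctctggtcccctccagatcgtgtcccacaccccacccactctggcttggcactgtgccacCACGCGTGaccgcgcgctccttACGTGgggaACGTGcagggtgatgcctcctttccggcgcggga
Pfkfb3: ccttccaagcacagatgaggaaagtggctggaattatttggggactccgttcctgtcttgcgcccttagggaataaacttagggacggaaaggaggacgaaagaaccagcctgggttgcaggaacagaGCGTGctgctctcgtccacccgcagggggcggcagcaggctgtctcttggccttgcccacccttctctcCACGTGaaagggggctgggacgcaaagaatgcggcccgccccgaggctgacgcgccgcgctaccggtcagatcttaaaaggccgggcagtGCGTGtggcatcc

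The Ldha window held 7 matches, including 2 copies of CACGTG, the windows of Bnip3 and Hk1 held 5 each, and that of Pfkfb3 held 4. ACGTG was found in 56.9% of the 51 windows and in 19.6% of all 32851 windows of this length. GCGTG was found in 58.8% of the 51 and in 32.4% of all. At least 1 core was present in 82.4% against 43.8%. The 51 windows also had a higher median G and C content (62.3% against 52.7%), and the shares were not adjusted for it. Among the 36 windows of genes higher with IFN-γ 80.6% held a core, and among the 14 windows of genes not called 85.7% did, so both sets held the letters at a similar share. A match is a description of the letters and not evidence of binding.

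Levels below are log2 of the scanner signal relative to the 75th percentile of the same array, so 0 is the brightness that 75% of probes stay under and 1 unit is a doubling. Probes differ in brightness for reasons other than RNA, so levels are compared between groups and not between genes. The 75th percentile itself was between 582 and 2110 in units of scanner intensity, 60.3% to 78.7% of probes were well above background, and arrays of a group correlated at 0.940 to 0.992 across genes. No spot of the 40 genes' probes was saturated. All 8 macrophage markers were above background on every array of each group. Arg1 lay at 2.29 or more on every array of the IL-4 groups and at -3.85 or less elsewhere, and Il6 at 3.08 or more on every array with LPS and below that on every array without it, so the scanner files carried the marks of their labels. The authors' deposited value table did not match them column by column. Of its 28 columns 26 were most like the scanner file of another array, 13 of these an array of another group, so the scanner files were used and the table entered only the comparison of LPS with no treatment, where its columns stayed within their groups. Arrays of the IFN-γ groups were scanned on 2 days, experiments E and F on one and G on another. The 39 genes varied less within groups than genes did in general (median within-group SD 0.37 against 0.51). Among them Car4 (1.01), Hilpda (0.85), Ankrd37 (0.83) and Egln3 (0.80) varied the most. The comparison with all genes was not adjusted for probe brightness.

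**Figure D1:**
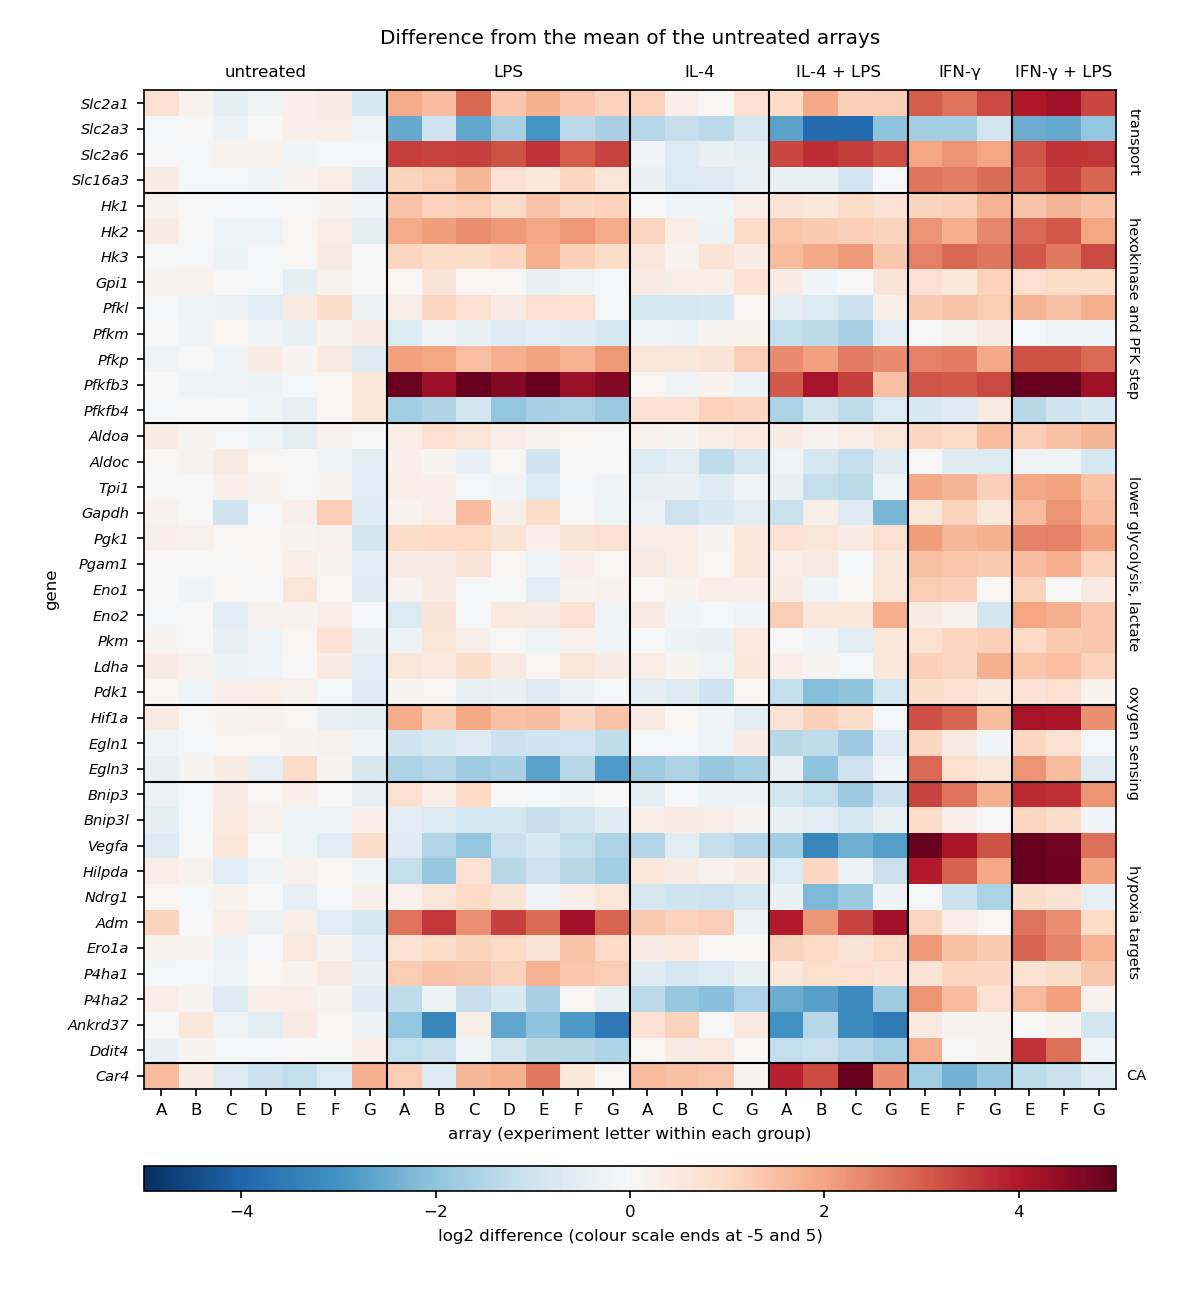
Difference of each of the 39 tested genes (rows, grouped by role) on each of the 28 arrays (columns, labelled by experiment letter within group) from the mean of the 7 untreated arrays, on the log2 scale, with red for higher, blue for lower and CA for carbonic anhydrases. The IFN-γ and IFN-γ + LPS columns are red for most rows, while the LPS columns are red in the upper rows of transport and hexokinase genes and blue for several hypoxia targets.

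Glucose transport came first in the order of roles. Slc2a1, the basal glucose transporter GLUT1, lay between 1.81 and 3.45 (median 2.87) on untreated arrays and between 3.87 and 5.56 (median 4.25) with LPS. It read 3.84, 2.96, 2.81 and 3.51 with IL-4 (experiments A, B, C and G) and 3.71, 4.59, 3.89 and 3.94 with IL-4 and LPS. With IFN-γ it read 5.71, 5.42 and 6.02 (E, F and G), and with IFN-γ and LPS 6.70, 6.92 and 6.03. Every array with LPS or IFN-γ lay above all untreated arrays, and the untreated and IL-4 arrays overlapped. The group means rose in the order untreated, IL-4, IL-4 with LPS, LPS, IFN-γ, and IFN-γ with LPS.

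Slc2a6 encodes GLUT6, a hexose transporter found on lysosomes of inflammatory macrophages, and it was among the least variable of the 39 (within-group SD 0.19). It ran from 3.68 to 3.98 (median 3.73) untreated and from 6.81 to 7.40 (median 7.17) with LPS. The IL-4 arrays read 3.64, 3.10, 3.42 and 3.34, and those with IL-4 and LPS 7.13, 7.48, 7.30 and 7.03. The IFN-γ arrays read 5.76, 6.04 and 5.77, and those with IFN-γ and LPS 6.96, 7.40 and 7.36. The 3 groups with LPS overlapped, and IFN-γ alone formed a step between them and untreated cells. Slc16a3, the lactate exporter MCT4, followed another order. It ran from 3.88 to 4.86 (median 4.42) untreated and from 5.03 to 6.12 (median 5.54) with LPS, and read 7.16, 7.02 and 7.25 with IFN-γ and 7.43, 7.88 and 7.38 with IFN-γ and LPS. With IL-4 it read 4.14, 3.81, 3.82 and 4.08, and with IL-4 and LPS 4.11, 4.06, 3.51 and 4.37. The LPS arrays without a cytokine lay above all 8 IL-4 arrays, and the 6 IFN-γ arrays lay above all others.

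Slc2a3, the high-affinity transporter GLUT3, went the other way. It ran from 0.02 to 0.60 (median 0.33) untreated and from -2.65 to -0.71 (median -1.34) with LPS. The IL-4 arrays read -1.12, -0.84, -0.99 and -0.47, those with IL-4 and LPS -2.36, -3.56, -3.56 and -1.68, those with IFN-γ -1.38, -1.38 and -0.61, and those with both -2.15, -2.26 and -1.63. All treated arrays lay below all untreated ones. A second Slc2a3 probe disagreed where IL-4 was concerned, as given with that comparison.

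Hexokinase and phosphofructokinase genes commit glucose to glycolysis. Hk2, the inducible hexokinase, ran from 2.55 to 3.39 (median 3.03) untreated and from 4.84 to 5.32 (median 5.08) with LPS. It read 4.07, 3.34, 2.75 and 3.97 with IL-4 and 4.40, 4.3, 4.23 and 4.11 with IL-4 and LPS. With IFN-γ it read 5.26, 4.82 and 5.40, and with IFN-γ and LPS 5.82, 6.10 and 4.99. The LPS arrays lay above all 8 IL-4 arrays and overlapped the IFN-γ arrays.

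Pfkfb3 encodes the enzyme that makes the strongest allosteric activator of phosphofructokinase, and it had the largest rise with LPS. It ran from 1.01 to 1.83 (median 1.17) untreated and from 5.53 to 6.98 (median 5.87) with LPS. It read 1.38, 1.09, 1.43 and 1.00 with IL-4, and 4.32, 5.39, 4.67 and 2.79 with IL-4 and LPS, all below the lowest LPS array. With IFN-γ it read 4.41, 4.37 and 4.57, and with IFN-γ and LPS 6.53, 6.27 and 5.50, overlapping the arrays with LPS alone. Its relative Pfkfb4, which makes and breaks down the same activator, moved in the opposite direction. It ran from 3.80 to 4.84 (median 4.25) untreated, from 2.26 to 3.29 (median 2.59) with LPS, and read 4.95, 4.93, 5.38 and 5.30 with IL-4. The IL-4 arrays lay above every untreated array and the LPS arrays below every one.

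In lower glycolysis, Ldha, which reduces pyruvate to lactate, moved over a narrower range. It ran from 5.72 to 6.71 (median 6.28) untreated and from 6.41 to 7.18 (median 6.77) with LPS. It read 6.64, 6.45, 6.07 and 6.84 with IL-4 and 6.57, 6.44, 6.19 and 6.82 with IL-4 and LPS. With IFN-γ it read 7.48, 7.32 and 8.07, and with IFN-γ and LPS 7.70, 7.80 and 7.45. The 6 IFN-γ arrays lay above all others, and the untreated, LPS and IL-4 arrays overlapped one another.

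The regulator Hif1a ran from 1.00 to 1.95 (median 1.55) untreated and from 2.52 to 3.41 (median 2.94) with LPS. It read 1.94, 1.58, 1.26 and 0.95 with IL-4 and 2.14, 2.69, 2.42 and 1.42 with IL-4 and LPS. With IFN-γ it read 4.71, 4.38 and 3.05, and with IFN-γ and LPS 5.62, 5.58 and 3.80. Untreated and LPS arrays did not overlap, and the lowest array of each IFN-γ group was experiment G. These are transcript levels, and HIF-1α protein was not measured on these arrays.

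Vegfa, the vascular growth factor, had the widest spread of group means among the 39, 6.89 units. It ran from 0.03 to 1.55 (median 0.65) untreated and from -1.30 to 0.05 (median -0.51) with LPS. It read -0.76, 0.17, -0.51 and -0.79 with IL-4 and -1.01, -2.57, -1.75 and -2.08 with IL-4 and LPS. With IFN-γ it read 5.92, 4.79 and 3.88, and with IFN-γ and LPS 6.16, 5.52 and 3.43, all above the highest array of any other group. Hilpda, which coats lipid droplets and holds back fat breakdown, was also high in both IFN-γ groups. It ran from -0.05 to 0.81 (median 0.58) untreated, from -1.40 to 1.23 (median -0.92) with LPS, and read 4.44, 3.45 and 2.40 with IFN-γ and 5.57, 5.34 and 2.50 with IFN-γ and LPS. It read 1.07, 0.92, 0.70 and 0.86 with IL-4 and -0.23, 1.55, 0.20 and -0.62 with IL-4 and LPS, so unlike Vegfa it was not lowest in that group. The LPS array of experiment C, at 1.23, lay above all untreated arrays while the other 6 lay below them.

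**Figure D2:**
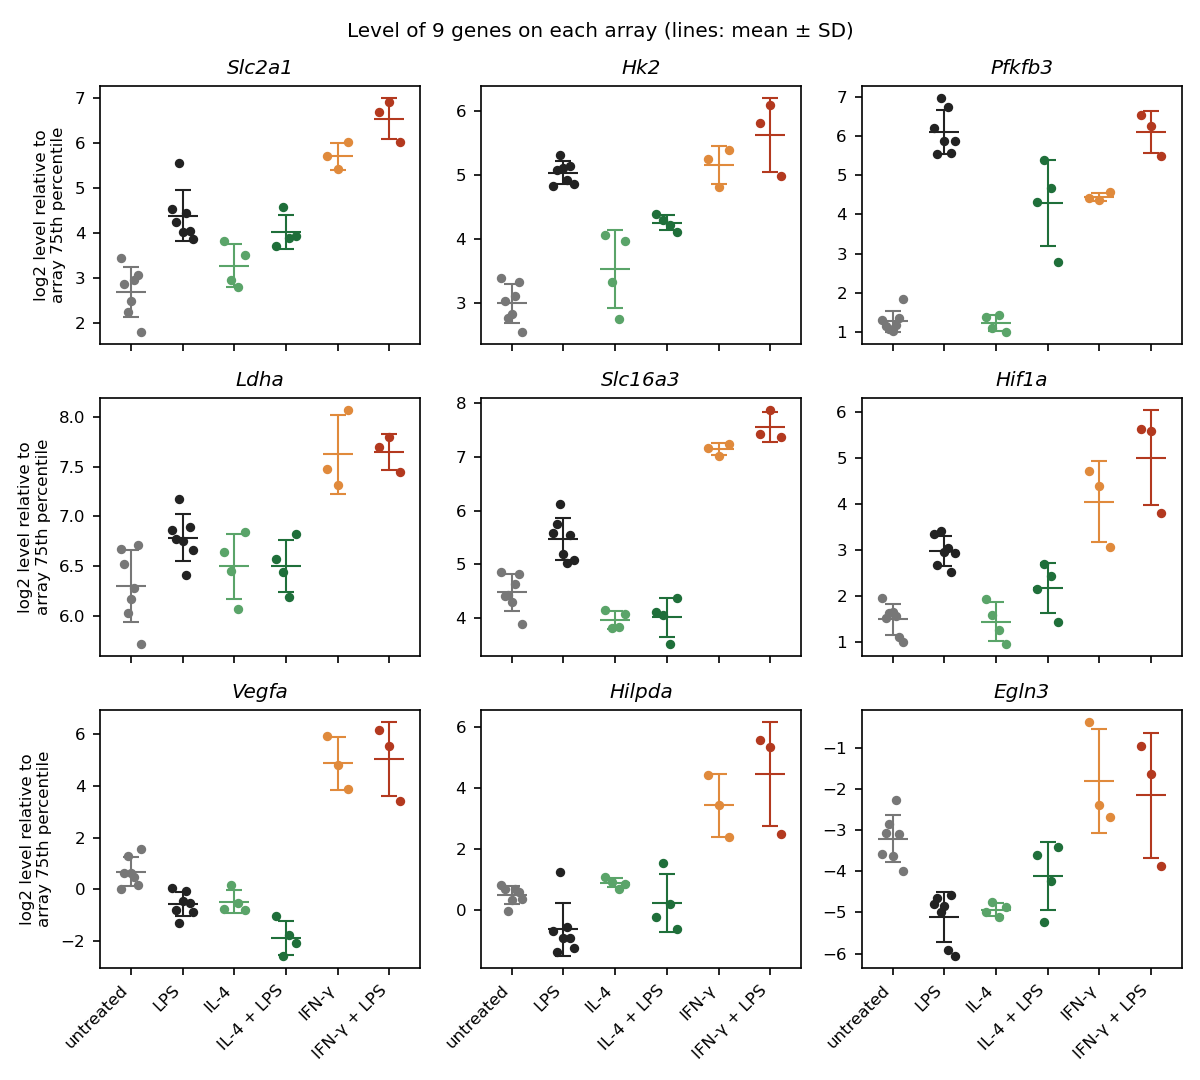
Level of 9 genes on each array (points, log2 relative to the array's 75th percentile) in the 6 groups, with the group mean and SD as lines. Vegfa and Hilpda sit below or near their untreated level in the LPS groups without IFN-γ and well above it in both IFN-γ groups, while Pfkfb3 is high in all 3 groups with LPS.

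The order of the 3 IFN-γ arrays differed between genes, and it was not tested. Array G, scanned apart from E and F, was the lowest of its group for 8 of 11 hypoxia targets with IFN-γ and for 10 of 11 with IFN-γ and LPS, and for all 3 oxygen-sensing genes in both. It was the highest of the 3 IFN-γ arrays for 3 of 4 transport genes and 6 of 9 hexokinase and phosphofructokinase genes. With IFN-γ and LPS it was the highest for 1 and the lowest for 2 of the 4 transport genes, and the highest for 4 and the lowest for 3 of the 9. In lower glycolysis it was the lowest for 7 of 11 with IFN-γ and for 8 of 11 with IFN-γ and LPS. The median range between the 3 arrays was 1.5 for hypoxia targets and 0.44 for transport genes with IFN-γ. Against untreated cells 26 of the 27 genes called with IFN-γ had the same direction on both days, the exception being Eno1. Among the 12 genes not called, Gapdh (1.38 and -0.67), Eno2 (0.48 and -1.23), Egln1 (0.69 and -0.35) and Pfkfb4 (-0.62 and 0.38) differed in direction between the day of E and F and that of G. On the day of E and F Vegfa was 4.38 higher than in untreated cells and on the day of G 3.72 higher, Hilpda 3.81 and 1.83, Hif1a 2.91 and 1.94, and Slc2a1 3.19 and 2.95. Array G was also dimmer than E and F. Its 75th percentile with IFN-γ was 750.3, against 1561 (E) and 1307 (F), and with IFN-γ and LPS 582.4, against 1007 and 940.1. With IFN-γ 61.38% of its probes were well above background, against 70.64% and 72.4%. With IFN-γ and LPS the share was 60.34%, against 70.02% and 69.68%. The parts of scan day and array brightness in the spread were not tested.

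LPS alone was compared with no treatment to describe unprimed macrophages, 7 arrays against 7. Of the transport genes 3 of 4 rose, at the hexokinase and phosphofructokinase step 6 of 9, and in lower glycolysis 2 of 11. The last 2, Ldha and Pgk1, changed direction with quantile normalization. Hif1a rose, and of 11 hypoxia targets 3 rose and 6 fell. Of the 39 genes 15 were higher (38.5%, against 20.8% of all tested genes) and 11 lower (28.2%, against 21.5%), at an adjusted p under 0.05 in limma's moderated test. Their median change was 0.28, and that of all genes 0.05. With quantile normalization of the arrays in place of the 75th percentile 12 were higher and 17 lower, and with normexp background correction 13 and 6. The share of higher among all called genes was 49.2%, and 41.8% with quantile normalization. Fewer cells of a type and less RNA per cell cannot be told apart in such bulk samples.

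Of the 4 transport genes 3 rose and 1 fell. Slc2a6 rose by 3.34 ± 0.12 on the log2 scale (10.1-fold, SE of the model, adjusted p = 3.71e-17), Slc2a1 by 1.69 ± 0.26 (3.23-fold) and Slc16a3 by 1.00 ± 0.18 (2.00-fold, but 0.20 and not called with quantile normalization). Slc2a3 fell by 1.96 ± 0.29 (3.88-fold lower, adjusted p = 4.59e-06). Of 9 hexokinase and phosphofructokinase genes 6 rose and 2 fell. Pfkfb3 rose by 4.84 ± 0.29 (28.7-fold, adjusted p = 5.57e-13), Hk2 by 2.04 ± 0.19 (4.12-fold) and the platelet-type phosphofructokinase gene Pfkp by 1.90 ± 0.17 (3.73-fold). Pfkfb4 fell by 1.60 ± 0.20 (3.03-fold lower), and the muscle-type gene Pfkm also fell. Hk1, Hk3 and the liver-type gene Pfkl were the other rises, and Gpi1, the isomerase between hexokinase and phosphofructokinase, differed by 0.03 ± 0.15 (adjusted p = 0.919).

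Of 11 genes of lower glycolysis and lactate only Pgk1, for phosphoglycerate kinase, and Ldha were called, both higher. Ldha differed by 0.49 ± 0.17 (1.40-fold, adjusted p = 0.0203), and with quantile normalization its change turned to -0.40 and that of Pgk1 to -0.10, so no direction is drawn from either. Eno1 for enolase (0.04 ± 0.21, adjusted p = 0.910) and Pkm for pyruvate kinase (0.07 ± 0.19, adjusted p = 0.828) were furthest from passing. Several of these enzymes, among them Gapdh, Pgk1, Eno1, Aldoa, Tpi1 and Ldha, have near-identical copies elsewhere in the genome that a probe may also read. The array had only 1 probe for Gapdh, identified by its gene number, and it was dim (mean -3.95 untreated), so its values are uncertain.

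Hif1a rose by 1.49 ± 0.28 (2.81-fold, adjusted p = 9.29e-05), and both prolyl hydroxylase genes that mark its protein for destruction fell, Egln3 by 1.91 ± 0.41 (3.75-fold lower, adjusted p = 4.26e-04) and Egln1 by less. Egln3 was above background on 5 of the 7 LPS arrays. Of 11 hypoxia targets 3 rose and 6 fell. Adm, for the vasodilator peptide adrenomedullin, ran from -5.21 to -3.23 (median -4.37) untreated and from -2.08 to -0.13 (median -1.42) with LPS, and rose by 3.12 ± 0.37 (8.71-fold, adjusted p = 1.35e-07). The collagen prolyl hydroxylase gene P4ha1 rose by 1.36 ± 0.13 (2.57-fold), and Ero1a, an oxidase of the endoplasmic reticulum, was the other rise. Ankrd37, an ankyrin repeat gene, ran from -0.37 to 0.73 (median 0.19) untreated and from -3.38 to 0.50 (median -2.41) with LPS, and fell by 2.28 ± 0.42 (4.86-fold lower, adjusted p = 7.67e-05). Vegfa fell by 1.25 ± 0.37 (2.37-fold lower, adjusted p = 0.00731). Hilpda, the mTORC1 inhibitor gene Ddit4, the mitophagy receptor gene Bnip3l and the second collagen hydroxylase gene P4ha2 were the other falls. Leaving out 1 array ended the call of Hilpda in 10 of 14 runs and of P4ha2 and Pfkl in 9 each. With normexp background correction the falls of Vegfa, Hilpda, Ddit4, Egln3 and P4ha2 kept their direction and were no longer called. All 26 called genes had the same direction on each of the 5 scan days, and all 26 were called as well with the values of the authors' deposited value table. Each column of that table correlated at 0.997 or more with 1 of these scanner files, so this is not separate support.

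Of 14 tested further hypoxia targets that are not among the 40, 5 rose and 4 fell with LPS. Angptl4, a lipase inhibitor, fell by 3.58 ± 0.36 and Ak4, a mitochondrial adenylate kinase, rose by 2.35 ± 0.26. Of 15 tested genes that steer glucose use by other means 4 rose and 7 fell, among them Pfkfb2 (fell by 3.10 ± 0.25), another relative of Pfkfb3, and Txnip (fell by 1.87 ± 0.20), which restrains glucose uptake. Of 13 genes of pyruvate entry and lactate oxidation 5 rose and 1 fell, with Pdk3, a kinase that shuts pyruvate dehydrogenase, up by 1.82 ± 0.14. Of 11 HIF partners and regulators 2 rose and 3 fell. In the pentose phosphate branch 1 rose and 1 fell of 7, and in glycogen metabolism and gluconeogenesis 1 rose and 3 fell of 11. Of all tested genes 20.8% rose and 21.5% fell with LPS. The counts of the last 3 lists lie near those shares or below, and no response is read from them.

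Of the marker lists for other cells, 1 of 5 each of T cell, dendritic cell and stroma markers and 1 of 7 neutrophil markers rose with LPS, against 20.8% of all tested genes. Of 5 each of B cell and mast cell markers and of 7 neutrophil markers 1 fell, against 21.5% of all. No such list exceeded the share of all genes. Summed levels went from between -2.40 and -1.22 to between 0.48 and 2.32 for T cell markers and from between -1.80 and -1.02 to between 0.37 and 3.03 for dendritic cell markers. For B cell markers they went from between 1.09 and 2.05 to between 0.13 and 1.11. Of 8 macrophage markers 5 rose, and their sum went from 9.12 to 9.62 untreated to 10.06 to 10.44 with LPS. The part of other cells in the changes was not tested.

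IFN-γ was compared with no treatment, 3 arrays against 7, to describe its effect without LPS. Here 3 of 4 transport genes, 7 of 9 at the hexokinase and phosphofructokinase step, 8 of 11 of lower glycolysis, Hif1a and 6 of 11 hypoxia targets rose, while Slc2a3 and Car4 fell. Of the 39 genes 25 were higher (64.1%, against 12.6% of all tested genes) and 2 lower (5.13%, against 13.2%), all by limma. Their median change was 1.32, against -0.29 for all genes. With each array centred on its median the count was 27 higher and 1 lower, with quantile normalization 21 and 3. Median centring moved the all-gene median from -0.29 to 0.16 and the share of higher among all called genes from 49.0% to 77.8%.

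Slc2a1 rose by 3.01 ± 0.34 (8.07-fold, adjusted p = 2.37e-07), Slc16a3 by 2.67 ± 0.23 (6.35-fold) and Slc2a6 by 2.06 ± 0.15 (4.17-fold). Slc2a3 was lower by 1.44 ± 0.38 (2.71-fold, adjusted p = 0.00607), but was no longer called with median centring (-0.99). Of 9 hexokinase and phosphofructokinase genes 7 rose. Pfkfb3 rose by 3.18 ± 0.37 (9.07-fold, adjusted p = 4.33e-07), Pfkp by 2.33 ± 0.22 (5.04-fold) and Hk2 by 2.16 ± 0.25 (4.47-fold). Hk3, the hexokinase of myeloid cells, ran from 3.45 to 4.14 (median 3.69) untreated, read 6.23, 6.59 and 6.40 with IFN-γ, and rose by 2.69 ± 0.20 (6.46-fold, adjusted p = 2.87e-10). Pfkm (0.18 ± 0.19, adjusted p = 0.495) and Pfkfb4 did not pass.

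In lower glycolysis 8 of 11 rose. They were Aldoa for aldolase, Tpi1 for triose phosphate isomerase, Pgk1, Pgam1 for phosphoglycerate mutase, Eno1, Pkm, Ldha and Pdk1. Like Pdk3, Pdk1 encodes a kinase that shuts pyruvate dehydrogenase. Ldha rose by 1.32 ± 0.22 (2.50-fold, adjusted p = 4.86e-05). The neuronal enolase gene Eno2 differed by -0.09 ± 0.32 (adjusted p = 0.855), and Aldoc and Gapdh did not pass. Eno1 was 1.16 higher on the day of experiments E and F and 0.02 lower on that of G, the only called gene whose direction differed between days here. With quantile normalization Aldoa, Eno1, Pkm, Pdk1, Gpi1 and Car4 kept their direction and were no longer called.

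Hif1a rose by 2.56 ± 0.36 (5.90-fold, adjusted p = 7.75e-06), and Egln3 (adjusted p = 0.0562) and Egln1 did not pass. Of 11 hypoxia targets 6 rose. Vegfa rose by 4.17 ± 0.48 (18.0-fold, adjusted p = 2.97e-07) and Hilpda by 2.95 ± 0.56 (7.72-fold, adjusted p = 2.84e-04). Bnip3 ran from 1.23 to 2.07 (median 1.65) untreated and read 5.03, 4.37 and 3.40 with IFN-γ, without overlap, and rose by 2.63 ± 0.33 (6.17-fold, adjusted p = 1.02e-06). Ero1a, P4ha1 and P4ha2 were the other rises. Ankrd37, which fell with LPS, read 0.63, 0.33 and 0.39 against an untreated median of 0.19 and differed by 0.25 ± 0.55 (adjusted p = 0.754). Car4, a membrane carbonic anhydrase, was not well above background on any IFN-γ array and on only 2 of 7 untreated ones. It was called lower (adjusted p = 0.0281), but the call was lost without any 1 of the 3 IFN-γ arrays or without untreated array A or G, and no fold is given so near background. Leaving out 1 array also ended the calls of Eno1 (without IFN-γ array E or F or untreated array G), P4ha2 (without IFN-γ array E) and Pdk1 (without any IFN-γ array or untreated array B, F or G).

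**Figure D3:**
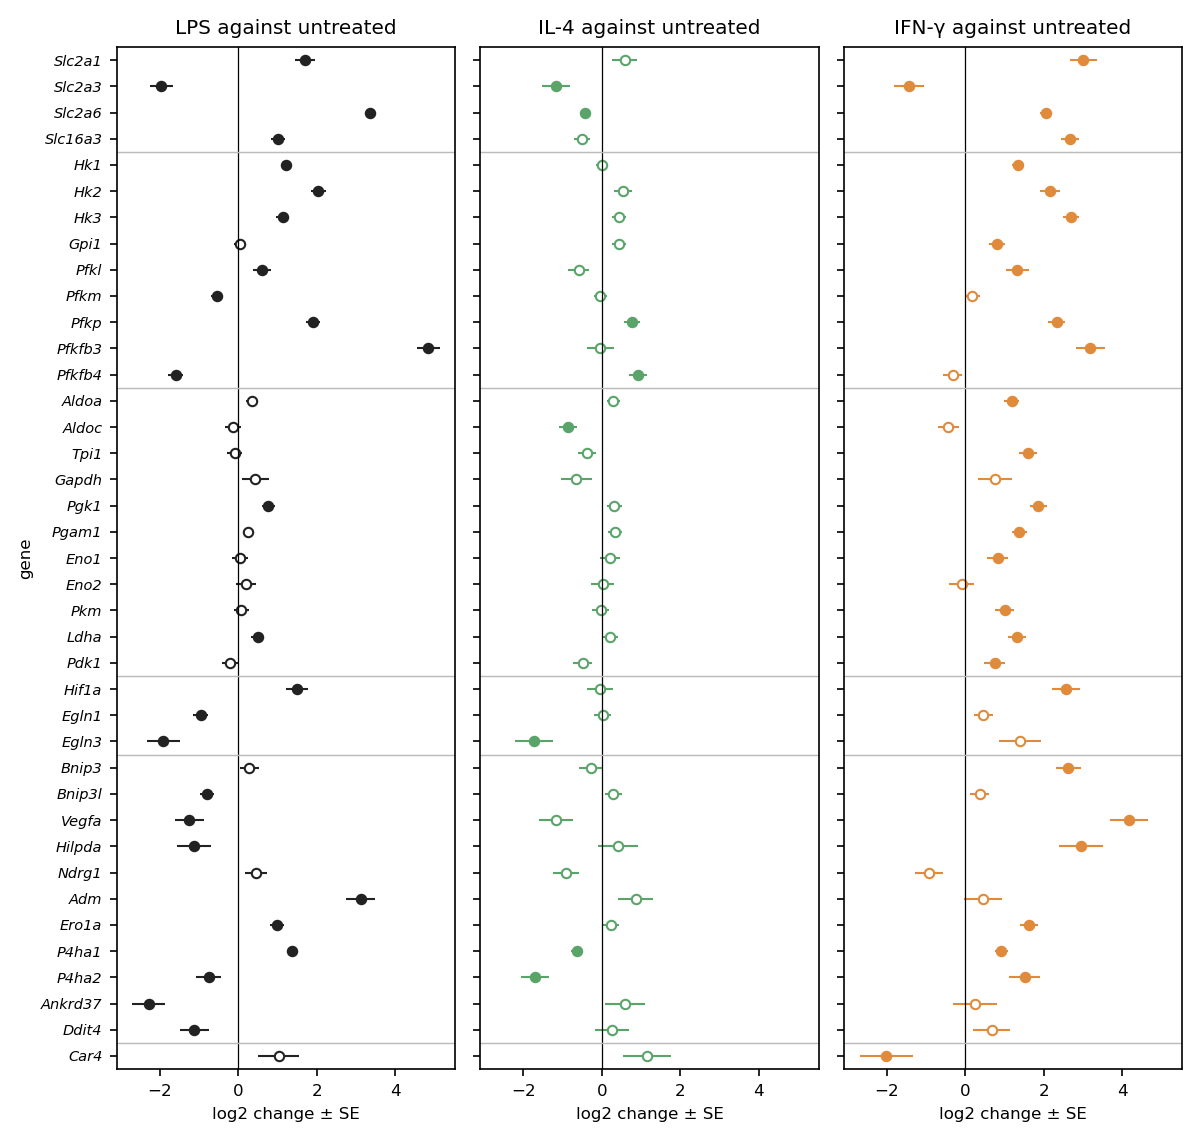
Log2 change (± SE of the limma model) of each of the 39 genes with LPS, IL-4 or IFN-γ against the same 7 untreated arrays, with filled points for genes called at adjusted p under 0.05 and grey lines between roles. LPS splits the genes into rises and falls, IL-4 changes lie close to 0 for most, and IFN-γ changes lie to the right for 25 filled points.

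The LPS and IFN-γ comparisons share the untreated arrays, so their values are set side by side and no overlap is tested. Pfkfb3 changed by 4.84 with LPS and 3.18 with IFN-γ, Slc2a6 by 3.34 and 2.06, Hk2 by 2.04 and 2.16, and Slc2a1 by 1.69 and 3.01. Vegfa changed by -1.25 and 4.17, and Hilpda by -1.13 and 2.95. In all, 14 genes were called higher in both. They include Ldha and Pgk1, for which no direction with LPS is drawn, and Slc16a3, not called with LPS under quantile normalization. A further 3 were lower with LPS and higher with IFN-γ (Vegfa, Hilpda and P4ha2). Another 8 were higher with IFN-γ and not called with LPS or IL-4.

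Beyond the 40 genes, 7 of 14 further hypoxia targets rose and 1 fell with IFN-γ. Ak4 rose by 3.09 ± 0.34, and Angptl4 fell by 2.75 ± 0.47. Of 11 HIF partners and regulators 2 rose, the repressor gene Bhlhe40 by 2.18 ± 0.35 and Vhl, whose product tags hydroxylated HIF-1α, by 0.85 ± 0.20. Of 15 genes that steer glucose use by other means 4 rose and 3 fell, and the pentose phosphate branch had 2 rises and 1 fall of 7. Pyruvate entry and lactate oxidation had 5 rises and 1 fall of 13, with a median change of 0.43 against -0.29 for all genes. The 1 fall, against the direction of its list, was that of the lactate-oxidizing gene Ldhb (down by 0.89 ± 0.29). In glycogen metabolism and gluconeogenesis 3 rose and 2 fell of 11. Of all tested genes 12.6% rose and 13.2% fell with IFN-γ, and no response of a list is read from counts of 1 to 3 genes.

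Markers of other cells were called with IFN-γ as well, where 12.6% of all tested genes rose and 13.2% fell. Of 4 megakaryocyte markers 2 fell, and their summed level ran from 4.06 to 4.3 with IFN-γ and from 5.41 to 6.17 untreated. With IL-4 2 of the 4 fell too. Of 5 each of B cell and mast cell markers 1 fell, and of 5 T cell markers 1 rose. Of 7 neutrophil markers 4 fell (summed level 0.94 to 2.06 against 1.94 to 2.53), and of 5 dendritic cell markers 2 rose (-0.23 to 1.03 against -1.80 to -1.02). Of 8 macrophage markers 3 rose and 1 fell, and their summed level ran from 9.78 to 10.41 with IFN-γ and from 9.12 to 9.62 untreated. The part of other cells in the changes described was not tested.

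IL-4 was compared with no treatment, 4 arrays against 7. Few of the genes moved, and those that did were mostly lower. Of the 39 genes 2 were higher (5.13%, against 5.75% of all tested genes) and 6 lower (15.4%, against 5.51%), with a median change of 0.02 against 0.01 for all genes. The higher count is at the level of all genes. With median centring or normexp background correction 1 of the 8, P4ha2, was still called, so the other calls rest on the setting.

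P4ha2 ran from -0.15 to 0.82 (median 0.65) untreated and read -0.84, -1.41, -1.60 and -1.06 with IL-4, without overlap. It fell by 1.71 ± 0.36 (3.27-fold lower, adjusted p = 0.00177). Egln3 ran from -4.00 to -2.27 (median -3.09) untreated, read -4.98, -4.74, -5.12 and -4.87 with IL-4, and fell by 1.72 ± 0.48 (3.30-fold lower, adjusted p = 0.0188). P4ha1 fell by 0.63 ± 0.15, the brain-type aldolase gene Aldoc by 0.85 ± 0.23 and Slc2a6 by 0.42 ± 0.14. Slc2a3 fell by 1.17 ± 0.35 at its brightest probe, but another probe read 1.52 ± 0.66 higher and the mean over its probes was 0.18, so the direction for Slc2a3 with IL-4 is unsettled. Pfkfb4 rose by 0.91 ± 0.23 (1.88-fold, adjusted p = 0.00847) and Pfkp by 0.76 ± 0.20 (1.70-fold, adjusted p = 0.00981). Hk1 (0.00 ± 0.14), Eno2 (0.02 ± 0.29) and Egln1 (0.02 ± 0.22) were furthest from passing (adjusted p = 0.994, 0.979 and 0.976). Hif1a differed by -0.05 ± 0.33 (95% interval -0.74 to 0.63) and Slc16a3 by -0.51 ± 0.21 (adjusted p = 0.131), and neither passed. Of 4 megakaryocyte markers 2 fell with IL-4 (summed level 4.76 to 5.41, against 5.41 to 6.17 untreated), where 5.51% of all tested genes fell. Of 8 macrophage markers 2 fell, as did 1 of 7 neutrophil markers and 1 of 5 each of B cell, dendritic cell and mast cell markers. The part of other cells was not tested.

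IL-4 was also set directly against IFN-γ, 4 arrays against 3. With IL-4 25 of the 39 genes were lower (64.1%, against 13% of all tested genes) and 2 higher (5.13%, against 14.8%), with a median difference of -1.35 against 0.30 for all genes. Median centring gave 25 lower and 1 higher, and moved the share of higher among all called genes from 53.3% to 27.6%. Vegfa was lower with IL-4 by 5.34 ± 0.53 (40.4-fold, adjusted p = 1.91e-08), Pfkfb3 by 3.23 ± 0.41 (9.35-fold), P4ha2 by 3.22 ± 0.44 (9.35-fold) and Slc16a3 by 3.18 ± 0.25 (9.05-fold). Egln3, Bnip3, Hif1a, Hilpda, Slc2a6, Slc2a1 and Hk3 were lower by 2.25 to 3.12, and none of their IL-4 arrays reached an IFN-γ array. Car4 was higher with IL-4, where 3 of 4 arrays were above background, than with IFN-γ, where none was (adjusted p = 0.00196), and no fold is given. In addition, Pfkfb4 was higher by 1.24 ± 0.28. Ndrg1, a stress response gene, differed by -0.01 ± 0.40 (adjusted p = 0.988). Of 4 megakaryocyte markers 2 were higher with IL-4, 2 of 5 dendritic cell and 3 of 8 macrophage markers lower, and their part in the differences was not tested. Only experiment G has both cytokines, and with its single array per group 8 genes were called under the assumption that a lone array varies like those of other groups.

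Primed cells were then compared before and after LPS. In IL-4-primed cells (4 against 4) 11 genes rose with LPS (28.2%, against 14.9% of all tested genes) and 10 fell (25.6%, against 16.2%), and with quantile normalization 8 rose and 15 fell, the share of higher among all called genes moving from 48.0% to 37.8%. Slc2a6 rose by 3.86 ± 0.15 (14.5-fold, adjusted p = 1.11e-15), Pfkfb3 by 3.07 ± 0.38 (8.39-fold), Adm by 2.57 ± 0.49 (5.92-fold), Pfkp by 1.58 ± 0.22, P4ha1 by 1.34 ± 0.17 and Hk3 by 1.31 ± 0.21. Ankrd37 read 0.93, 1.34, 0.17 and 0.70 before LPS and -2.82, -1.22, -2.98 and -3.34 after it, without overlap, and fell by 3.37 ± 0.56 (10.4-fold lower, adjusted p = 3.17e-05). Pfkfb4 fell by 2.03 ± 0.26, Slc2a3 by 1.93 ± 0.39, Ddit4 by 1.61 ± 0.50 and Vegfa by 1.38 ± 0.49 (adjusted p = 0.0319). Arrays of these groups share experiment letters, and those of a letter also share a scan day. With only these groups and the letter as a replicate block Vegfa (adjusted p = 0.0513) and Hk2 (0.0986) were no longer called. Car4, above background on 3 of 4 arrays with IL-4 and on all 4 with IL-4 and LPS, rose by 2.50 ± 0.69 (5.66-fold, adjusted p = 0.00578). Ldha (0.00 ± 0.22, adjusted p = 0.996), Eno1 and Pkm were furthest from passing.

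In IFN-γ-primed cells (3 against 3) 4 genes rose with LPS (10.3%, against 5.61% of all tested genes), and none fell in limma's test, where 6.22% of all genes did. At an unadjusted p under 0.05 10.0 were higher and 1.0 lower. Eno2 read -0.30, -0.47 and -1.60 before LPS and 1.27, 1.07 and 0.66 after it, without overlap, and rose by 1.79 ± 0.38 (3.45-fold, adjusted p = 0.00206). Pfkfb3 rose by 1.65 ± 0.44 (3.14-fold), Slc2a6 by 1.38 ± 0.18 (2.60-fold, adjusted p = 8.77e-06) and Ndrg1 by 1.33 ± 0.43 (2.51-fold, adjusted p = 0.0445). Vegfa (0.18 ± 0.56, adjusted p = 0.899), Ldha (0.03 ± 0.26) and Aldoc (0.02 ± 0.31) were furthest from passing. These arrays share letters too, and those of a letter also share a slide and a scan day. With the letter as a replicate block over all arrays Ndrg1 was no longer called (adjusted p = 0.0848), and with only these groups and the block 9 genes were called. Without the IFN-γ and LPS array of experiment G 10 were called, and without that of E or of F 2.

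The difference between the LPS change in primed and in unprimed cells was tested itself. For IFN-γ it was lower for 6 of the 39 genes (15.4%, against 5.28% of all tested genes) and higher for 2 (5.13%, against 3.03%). Pfkfb3 changed by 3.19 ± 0.53 less with LPS in IFN-γ-primed than in unprimed cells (-3.19, adjusted p = 2.29e-04), Slc2a6 by 1.96 ± 0.21 less (-1.96, adjusted p = 1.34e-06) and Hk2 by 1.56 ± 0.35 less (-1.56, adjusted p = 0.00478). P4ha1 (-1.29 ± 0.24), Pfkp (-1.16 ± 0.31) and Hk1 (-1.02 ± 0.22) were the others. All 6 were already higher with IFN-γ alone, as were 25 of the 39 genes. That comparison enters the difference with the opposite sign on the same arrays, so it is not separate support. Ddit4 went the other way. It ran from 1.5 to 2.13 (median 1.85) untreated and from 0.29 to 1.61 (median 0.61) with LPS, but read 3.68, 1.88 and 1.99 with IFN-γ and 5.47, 4.60 and 1.69 with IFN-γ and LPS, a difference between the LPS changes of 2.52 ± 0.69 (adjusted p = 0.0201). Array G of that last group did not rise above its IFN-γ partner. The call of Ddit4 was lost without IFN-γ array F or G or IFN-γ and LPS array E or F. Eno2 was the other, by 1.59 ± 0.45 (adjusted p = 0.0269). Median centring left 4 of the 8 called, Pfkfb3, Slc2a6, Hk2 and Ddit4, and moved the share of higher among all called genes from 36.5% to 25.4%.

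For IL-4 the same test called 1 gene higher (2.56%, against 0.904% of all tested genes) and 1 lower (2.56%, against 0.681%). Hk2 changed by 1.32 ± 0.32 less with LPS in IL-4-primed cells (-1.32, adjusted p = 0.0304). Egln3, which fell with LPS in unprimed cells, read -3.60, -5.23, -4.24 and -3.40 after IL-4 and LPS against -4.98, -4.74, -5.12 and -4.87 after IL-4, a difference of 2.72 ± 0.68 (adjusted p = 0.0397). Median centring left neither called, and leaving out 1 array ended the call of Egln3 in 13 runs and that of Hk2 in 6. Pfkfb3 had a larger difference than Hk2 and did not pass (-1.78 ± 0.48, adjusted p = 0.0599).

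**Figure D4:**
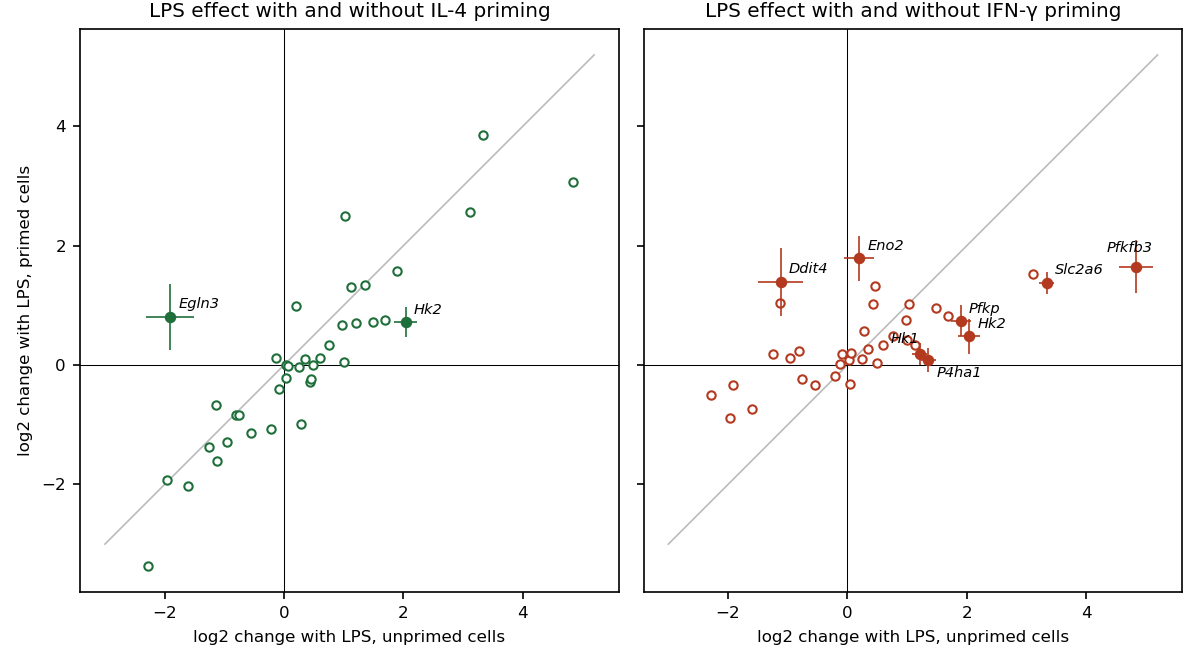
Log2 change with LPS in unprimed cells (horizontal) against that in cells primed with IL-4 (left) or IFN-γ (right), 1 point per gene, with a grey line where both are equal. Filled points with SE bars mark genes whose 2 changes differed at adjusted p under 0.05, 2 with IL-4 and 8 with IFN-γ, of which 6 lie below the line.

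Finally, cells with a cytokine and LPS were compared with LPS alone. With IFN-γ (3 against 7) 26 genes were higher (66.7%, against 10.6% of all tested genes) and 1 lower (2.56%, against 12.1%), with a median of 1.18 against -0.23 for all genes. Median centring gave 25 and 1, and moved the share of higher among all called genes from 46.8% to 72.6%. Normexp background correction gave 18 higher and 0 lower, and 9 calls were lost. Vegfa was higher by 5.6 ± 0.48 (48.4-fold, adjusted p = 8.56e-09) and Hilpda by 5.12 ± 0.56 (34.7-fold, adjusted p = 4.18e-07). Ddit4 was higher by 3.19 ± 0.48 (9.15-fold), Egln3 by 2.97 ± 0.53 (7.83-fold), Bnip3 by 2.93 ± 0.33 (7.62-fold) and P4ha2 by 2.04 ± 0.40 (4.13-fold). These were higher on every IFN-γ and LPS array than on any LPS array, but the sizes differed between days. Ddit4 was higher by 4.58 on the day of E and F and by 0.97 on that of G, Egln3 by 4.13 and 0.79, P4ha2 by 2.63 and 0.44, Hilpda by 6.43 and 3.89 and Vegfa by 6.25 and 4.21. Without 1 array the smallest difference was 2.42 for Ddit4 and 2.37 for Egln3. Ankrd37 was higher by 2.02 ± 0.55 with overlap, and its call was lost without IFN-γ and LPS array E or F. A second Hk1 probe read -0.85 ± 0.29 (adjusted p = 0.0381) where the brightest one read 0.33, so no direction is drawn for Hk1. Hif1a was higher by 2.02 ± 0.36 (4.06-fold, adjusted p = 2.08e-04), Slc2a1 by 2.15 ± 0.34, Slc16a3 by 2.09 ± 0.23 and Hk3 by 1.89 ± 0.20. All 3 oxygen-sensing genes, 8 of 11 hypoxia targets and 9 of 11 genes of lower glycolysis were higher, against 4 of 9 at the hexokinase and phosphofructokinase step. Pfkfb3 (-0.01 ± 0.37, 95% interval -0.78 to 0.76, adjusted p = 0.985) and Slc2a6 (0.10 ± 0.15, adjusted p = 0.685), the genes that LPS raised most, were among the 3 furthest from passing. Car4 was not well above background on any IFN-γ and LPS array and was called lower (adjusted p = 0.0292). No direction is drawn for it, as its difference was -1.84 on the day of E and F and 0.04 on that of G, normexp background correction gave 0.24, and the call was lost without array E or F of that group or LPS array D or E. Of 4 megakaryocyte markers 2 were lower in this comparison, of 7 neutrophil markers 3 and of 5 each of the T cell, B cell and stroma markers 1, while 1 of 5 dendritic cell and 2 of 8 macrophage markers were higher. Their part in the differences was not tested.

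With IL-4 and LPS against LPS (4 against 7) the balance was the reverse, with 14 genes lower (35.9%, against 4.59% of all tested genes) and 2 higher (5.13%, against 4.36%). The median was -0.31 against 0.08 for all genes. Pfkfb3 was lower by 1.82 ± 0.34 (3.53-fold, adjusted p = 6.95e-04), P4ha2 by 1.79 ± 0.36 (3.45-fold), Bnip3 by 1.53 ± 0.30 (2.90-fold) and Slc16a3 by 1.46 ± 0.21 (2.75-fold, adjusted p = 2.88e-05). Ndrg1 ran from 3.67 to 4.78 (median 4.39) with LPS, read 3.48, 1.57, 2.00 and 3.56 with IL-4 and LPS, and was lower by 1.61 ± 0.33 (3.04-fold, adjusted p = 0.00195). Pdk1 was lower by 1.35 ± 0.24, Pfkl by 1.07 ± 0.27 and Hk2 by 0.78 ± 0.23, while Hk3 was higher by 0.62 ± 0.18. Slc2a3 was lower by 1.15 ± 0.35 at its brightest probe, but the other probe read 1.43 ± 0.66 higher and the probe mean was 0.14. Car4 was higher by 2.62 ± 0.61 (6.14-fold, adjusted p = 0.00569). Median centring kept 8 of these 16 calls and gave 8 lower and 1 higher in all, and it moved the share of higher among all called genes from 48.7% to 37.5%. Without array B or array C of the IL-4 and LPS group 10 genes were called in place of 16. With 1 array left out, 8 of the 16 calls were kept in every run. The call ended in 8 of 11 runs for Tpi1, in 7 for Hk3 and in 6 for Slc2a3. It ended in 4 each for Gapdh and Hk1, in 3 each for Hk2 and Pfkm, and in 1 for Pfkl.

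Across the 6 groups 24 of the 39 genes (61.5%, against 15.7% of all tested genes) had their highest mean with IFN-γ and LPS, and 5 with IFN-γ alone (12.8%, against 8.61%). The lowest mean was that with IL-4 and LPS for 13 (33.3%, against 10.8%), that of untreated cells for 12 (30.8%, against 12.7%) and that with IL-4 for 8 (20.5%, against 16%). Those lowest untreated included Slc2a1, Hk2, Hk3, Pfkp, Pgk1, Ldha, Adm and Ero1a, and those lowest with IL-4 and LPS included Vegfa, Bnip3, P4ha2, Ankrd37, Ddit4 and Pdk1.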

How the data were processed

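RNA of 28 macrophage cultures in 6 groups was measured on single-colour Agilent 44K arrays, 1 array each. The intensity of each spot was taken as the authors deposited it, the scanner's processed signal of Agilent Feature Extraction 9.5.1 (per the submitters' processing notes), detrended but not scaled between arrays per the file headers. The authors' deposited value table holds log2 values centred per gene, with their exact processing not given in the sources used here; as most of its columns were most like another array, it served only as an alternative for LPS against untreated cells. The files' flags for spots above background, saturation and outliers were used as deposited.

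Log2 intensity minus the array's 75th percentile was averaged over spots of a probe, and the brightest probe stood for a gene. Probes were named through RefSeq accessions (22951), symbols (6659), synonyms (3109) or gene numbers (294), and 8161 kept the file's name. Genes well above background on 3 or more arrays were fitted with limma 3.58.1 in R 4.3.3 as 6 group means over all 28 arrays, leaving out 1 gene with no value in a group. The 10 contrasts were adjusted by Benjamini-Hochberg over all 22463 genes and called at 0.05. The method was tested on simulated data. The number of arrays limits the precision. The series is described as independent experiments on pooled cells, and p-values measure the spread between arrays within the 6 groups. That spread mixes experiment, slide and scan day. The model leaves out the pairing of arrays. For LPS in primed cells and the interactions its p-values therefore do not measure the spread of differences within experiments.

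All 40 genes could be named; per comparison, values are given for up to 12 called genes with the largest changes and up to 3 furthest from passing, per-array values for the genes the results turn on, and up to 3 called genes of each neighbouring list, of which 1 is not reported here. Slc2a3 and the array-level remarks on other genes were chosen after their values were seen. The members and lists were chosen with earlier results of these data known. Alternatives covered background correction, scaling, probe choice, filtering, blocks for slide, scan day and experiment letter, fewer groups and leaving out each array. Same-lettered arrays deviated together in the IL-4 pair of groups (r 0.153 to 0.730, 4 of 4 above 0.1) and in the IFN-γ pair (0.283 to 0.641, 3 of 3). These pairs also shared a scan day, and all but A and B of IL-4 (0.153 and 0.182) a slide. Letter, slide and day thus cannot be told apart. Same-lettered untreated and LPS arrays did not deviate together (-0.499 to 0.162), and no such pair shared a slide or scan day. All LPS columns of the value table and untreated columns C to G were most like an array of another letter in their group. The letters of untreated and LPS arrays are thus uncertain, and their correctness was not tested.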

Additional observations from a re-analysis of the deposited data

Results flagged for a closer look

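In groups of 4 or 7 arrays, an array was marked where its gap to the nearest other array was too large a part of the group's range for a Dixon test at 95%. This happened for 13 of 156 combinations of gene and group, and chance alone marks about 1 in 20. The IL-4 array of experiment G was low for Adm (-4.61) and Car4 (-6.28) and high for Pfkl (0.61) and Pfkp (3.18). The untreated array of experiment G was low for Pgk1 (4.55), Tpi1 (4.70) and Pgam1 (4.91) and high for Pfkfb3 (1.83). The LPS array of experiment C was high for Slc2a1 (5.56), Hilpda (1.23) and Ankrd37 (0.50), and that of experiment E was high for Hk3 (5.55) and low for Pgk1 (5.72). Letters here are those of the labels, which are uncertain for untreated and LPS arrays.

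The LPS change differed between primed and unprimed cells, by the interaction term itself, for 10 combinations. With IFN-γ the differences on the log2 scale were -3.19 for Pfkfb3, -1.96 for Slc2a6, -1.56 for Hk2, -1.29 for P4ha1, -1.16 for Pfkp, -1.02 for Hk1, 1.59 for Eno2 and 2.52 for Ddit4. With IL-4 they were -1.32 for Hk2 and 2.72 for Egln3.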

How the results depend on the processing

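Of 166 calls of a gene in a comparison, 166 were kept with the slide as a block, 163 with the scan day, 108 with normexp background correction (2 reversed), 145 with quantile normalization (2 reversed), 133 with median scaling, 149 with the experiment letter as a replicate block and 122 with only shared experiments. The letter block kept 10 of the 16 calls for IL-4 and LPS against LPS, where letters were not shown to pair the arrays. The letter block and the setting with only shared experiments rest on the letters of the labels, which are uncertain for untreated and LPS arrays. With normexp the number of genes called was 1 for IL-4, 12 for LPS in IL-4-primed cells, 1 for LPS in IFN-γ-primed cells, 5 for IL-4 and LPS against LPS, 0 for the IL-4 interaction and 4 for the IFN-γ interaction, against 8, 21, 4, 16, 2 and 8. For IFN-γ and LPS against LPS normexp kept 18 of 27 calls. At an unadjusted p under 0.05 limma's main analysis had 10 genes for the IL-4 interaction, 2 higher and 8 lower. Median scaling gave 1 for IL-4, 9 for IL-4 and LPS against LPS, 1 for the IL-4 interaction and 4 for the IFN-γ interaction. Quantile normalization, no filter on dim probes, and the experiment letter as a replicate block each gave 1 for the IL-4 interaction. The letter as a replicate block with only the groups compared, a setting chosen after seeing the data, gave 9 for LPS in IFN-γ-primed cells, and the block changed the other counts by less than 1.5 times. The slide as a block gave 14 for LPS in IFN-γ-primed cells, 7 for the IL-4 and 15 for the IFN-γ interaction, and the scan day 9 and 6 for the first of these 2. Only the groups compared gave 2 for LPS in IFN-γ-primed cells and 10 for IL-4 and LPS against LPS. Only shared experiments gave 2 for IL-4, 0 and 3 for the interactions and 8 for IL-4 against IFN-γ. Reversed were Car4 (0.24, IFN-γ and LPS against LPS) and Gapdh (0.11, IL-4 against IFN-γ) with normexp, Ldha (-0.40) and Pgk1 (-0.10) for LPS with quantile normalization, and Slc2a3 for IL-4 (0.18) and for IL-4 and LPS against LPS (0.14) with the mean of probes. The causes were not tested. Leaving out 1 array gave 23 to 26 genes for LPS, 5 to 8 for IL-4, 24 to 28 for IFN-γ, 17 to 21 and 2 to 10 for LPS in IL-4- and IFN-γ-primed cells, 10 to 16 and 22 to 29 for IL-4 and for IFN-γ with LPS against LPS, 0 to 3 and 6 to 12 for the IL-4 and IFN-γ interactions and 26 to 28 for IL-4 against IFN-γ, and reversed no call. The 5 for IL-4 came without IL-4 array C or G, and the 0 without IL-4 array A or G or IL-4 and LPS array C or G. The value table was not run for the other comparisons. Genes near background, such as Car4, Egln3 and Gapdh, have the least certain values.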
